A study of Mus musculus with 3 samples.

Results

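The genes described here are Ctla4, Cd28 and Icos, receptors of the CD28 family on T cells, and Icosl, Cd80 and Cd86, the B7 ligands that these receptors bind. The 6 genes were chosen by symbol from the 32285 genes in the count tables, after a lower Ctla4 level in T cells of both p38 groups was known from the same data. The Ctla4 values in T cells are therefore a description of what chose the genes and support nothing further. All 6 symbols were found in every library.

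CD28 gives T cells the second signal that they need, beside the T cell receptor, to become fully active, and CD80 and CD86 on antigen-presenting cells are its ligands. CTLA4 binds the same ligands more tightly, restrains the response, and on regulatory T cells removes CD80 and CD86 from the presenting cell. ICOS is a related costimulatory receptor with a ligand of its own, ICOSL, and is high on activated and regulatory T cells.

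Single-cell RNA sequencing was done on leukocytes from tumors of 4T1-luc, a BALB/c mammary carcinoma line that carries luciferase. All groups received 200000 cells in the 4th mammary fat pad of female Balb/c mice aged 6 to 8 weeks, and live CD45+ 7AAD- cells of 3 pooled tumors per group were sorted on day 14. The vehicle group bore p38 wildtype tumors and received DPBS, and the p38i group bore the same tumors and received LY2228820, an oral p38 inhibitor also called ralimetinib, at 30 mg/kg daily for 10 days from day 4. The p38KO group bore 4T1 cells in which Mapk14, the gene for p38α, had been inactivated by CRISPR-Cas9, from 1 clone, and received no drug. The drug reaches host cells as well as tumor cells, whereas the knockout is confined to the implanted cells by design.

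Each group is 1 library, so no test between groups was possible and no p-value is given. The intervals are 95% intervals that cover counting error only, not the spread between mice, and library and group cannot be told apart. Both comparisons share the vehicle library. Of 16143 barcodes, 12472 cells passed the limits of at least 1500 unique molecular identifiers (UMIs), at least 300 genes and at most 20% mitochondrial counts. These were 3820 vehicle, 4793 p38i and 3859 p38KO cells, with 20795195 to 24374173 UMIs per library and a median of 3038 to 3317 UMIs per cell. The median mitochondrial share was 0.671% in vehicle, 0.968% in p38i and 2.10% in p38KO, and 4 or 5 kept barcodes were shared by each pair of libraries. Levels are given in CPM, the summed UMIs of a gene scaled to the same total for every class and library. Mapk14 stood at 33.7 CPM in vehicle, 42.1 in p38i and 39.1 in p38KO sorted cells. This does not check the knockout, which is in tumor cells, since the sort was for leukocytes. Among the kept cells 4 of vehicle and 4 of p38KO carried epithelial markers, and they held 0 and 2 Mapk14 UMIs, too few to check it either.

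T-like cells were split by transcripts into Cd8a T cells (277, 241 and 161 cells in the vehicle, p38i and p38KO libraries, the order used throughout), Cd4 T cells (119, 146 and 178) and Foxp3 T cells (72, 114 and 97). The remaining T-like cells, 103, 191 and 125, had none or a mixture of these transcripts. Ligands were read in dendritic (95, 142 and 129), macrophage (140, 160 and 523), monocyte (577, 1038 and 467) and granulocyte classes (2236, 2561 and 1882). Flt3, the marker of the dendritic class, had a UMI in 46.3%, 57.7% and 69.0% of its cells, so the class rests on further markers as well. A value was called higher or lower where its log2 ratio to vehicle was at least 0.5 either way, the interval left out 0, and at least 20 UMIs were counted over both libraries. All 9 receptor and all 12 ligand values in these classes had enough UMIs.

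Ctla4 (ENSMUSG00000026011), Cd28 (ENSMUSG00000026012) and Icos (ENSMUSG00000026009) lie side by side on the plus strand of chromosome 1, in GENCODE M21 on GRCm38. Cd28 spans 60716800 to 60773359, Ctla4 60887000 to 60915832 and Icos 60977927 to 61000320. Cd80 (ENSMUSG00000075122) lies on chromosome 16 from 38455561 to 38496335 on the plus strand, Cd86 (ENSMUSG00000022901) on the same chromosome from 36603869 to 36666081 on the minus strand, and Icosl (ENSMUSG00000000732) on chromosome 10 from 78069302 to 78083913 on the plus strand. The span of Ctla4 holds 1 pseudogene, Rpl18-ps1, on the same strand, and that of Icos holds 1 locus of uncertain status, Gm37039. Reads from transcript 3′ ends do not separate the full-length and soluble forms of Ctla4.

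RefSeq start-site windows of 300 bases on GRCm38.p6 were at hand for 3 of the 6 genes, Ctla4, Icosl and Cd80. The windows of Ctla4, the receptor with the largest differences, and of Cd80, the ligand with the most calls in p38KO, are shown 5′ to 3′. Capitals mark matches to GGAAA, the core bound by NFAT factors, or to TGANTCA, on either strand. The latter is a loose form of the AP-1 site that allows any middle base.
Ctla4, chr1:60908775-60909074, plus strand: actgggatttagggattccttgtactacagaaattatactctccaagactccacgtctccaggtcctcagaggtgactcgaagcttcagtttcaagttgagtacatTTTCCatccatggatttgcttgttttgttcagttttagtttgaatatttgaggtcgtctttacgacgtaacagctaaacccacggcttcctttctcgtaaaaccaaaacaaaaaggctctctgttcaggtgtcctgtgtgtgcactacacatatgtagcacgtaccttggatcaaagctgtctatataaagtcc
Cd80, chr16:38458683-38458982, plus strand: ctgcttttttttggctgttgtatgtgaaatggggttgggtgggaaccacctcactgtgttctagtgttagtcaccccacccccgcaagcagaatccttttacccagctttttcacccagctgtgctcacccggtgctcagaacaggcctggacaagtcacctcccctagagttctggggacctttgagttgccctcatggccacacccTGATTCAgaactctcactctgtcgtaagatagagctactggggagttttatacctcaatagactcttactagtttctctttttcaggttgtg
The Ctla4 window held 1 match to GGAAA, a core present in 61.3% of all 32851 windows of this length. The Cd80 window held 1 match to TGANTCA, with T in the middle and not the C or G of the usual AP-1 site. The loose form was present in 7.81% of windows. The Icosl window held neither motif. Matches describe letters only.

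Apart from Ctla4, whose fall chose the genes, 2 of 6 receptor values were called lower in p38i, both of Cd28, in Cd8a and Cd4 T cells. In p38KO 5 of 6 were called lower, all but Icos in Foxp3 T cells, and none was called higher in either group. With Ctla4, called lower in all 3 subsets of both groups, the counts were 5 of 9 and 8 of 9, but these include the values that chose the genes. Over all genes with enough UMIs, calls in either direction took 7.46% in Cd8a, 8.00% in Cd4 and 7.88% in Foxp3 T cells for p38i, and 12.1%, 11.4% and 8.73% for p38KO. The calls of Cd28 in Cd4 T cells of both groups and of Cd28 and Icos in Cd8a T cells of p38KO were made under every alternative with an interval. The other calls of Cd28 and Icos were lost under at least 1. Those of Ctla4 were also made under every alternative, which adds no support because its fall in the same cells chose the genes.

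Markers of other cells moved with the groups in these subsets. The summed level of 8 granulocyte markers was 2939, 7916 and 3655 CPM in Cd8a, 1932, 6171 and 3531 in Cd4, and 3044, 2876 and 2620 in Foxp3 T cells, with all 8 detected each time. Of 8 macrophage markers, 5 to 8 were detected, at 71.7, 59.2 and 294 CPM in Cd8a, 93.7, 99.4 and 436 in Cd4, and 104, 42.4 and 406 in Foxp3 T cells. Their part in the receptor values was not tested.

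Ctla4, the inhibitory receptor, was highest in Foxp3 T cells of every library. It measured 1015 CPM in vehicle (95% Poisson interval 915 to 1122), 624 in p38i (553 to 702) and 486 in p38KO (429 to 548). The vehicle library was above both others and p38i was above p38KO, with intervals that did not overlap. The log2 ratios to vehicle were -0.70 (-0.93 to -0.47) for p38i and -1.06 (-1.29 to -0.83) for p38KO. With marker gates in place of clusters they were -0.71 and -0.72, so the p38 libraries were then nearly level.

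In Cd4 T cells Ctla4 measured 388 CPM in vehicle, 116 in p38i and 107 in p38KO, log2 ratios of -1.75 (-2.15 to -1.36) and -1.86 (-2.21 to -1.52). Both p38 libraries were low and their intervals overlapped. A single vehicle cell held 53 of the 228 Ctla4 UMIs of this subset, and without the cell with most Ctla4 UMIs in each library the ratios were -1.68 and -1.73. When Cd4 T cells with a UMI of Ikzf2 or Il2ra, genes high in regulatory T cells, were left out, 80, 100 and 110 cells remained. Ctla4 then measured 227, 31.7 and 54.1 CPM, ratios of -2.84 and -2.07. With cells gated after thinning to 1500 UMIs the ratios were smaller, at -1.09 and -0.93. The make-up of T-like cells also differed, since the cluster led by Ccl1 and Lgals7, with Cd4 among its leading genes, held 32, 48 and 96 cells. The part of this cluster in the Ctla4, Cd28 and Icos ratios of Cd4 T cells was not tested.

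In Cd8a T cells Ctla4 measured 117 CPM in vehicle, 34.2 in p38i and 10.6 in p38KO, from 243, 52 and 11 UMIs. The 3 intervals were apart, and the log2 ratios were -1.77 (-2.23 to -1.34) and -3.47 (-4.49 to -2.61). Granulocytes, which should lack the transcript, gave 3.19, 1.32 and 0.432 CPM, the last from 2 UMIs. The p38KO value in Cd8a T cells stood above this granulocyte level. Other myeloid classes of p38KO gave more, with 7 Ctla4 UMIs of 1819200 in dendritic cells and 19 of 8825538 in macrophages. Cd8a T cells of p38KO had 11 of 1042506, and the part of background in them was not tested. Cells with 5 or more Ctla4 UMIs numbered 13 of 277 in vehicle and none in the p38i and p38KO libraries. In Foxp3 T cells such cells made up 40.3%, 15.8% and 19.6%. These counts were not thinned, and the median depth of Foxp3 T cells was 4324.5, 3066 and 4262 UMIs.

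The lower Ctla4 of Cd8a T cells was seen with and without Pdcd1, the gene for the exhaustion-associated receptor PD-1. Cd8a T cells with a Pdcd1 UMI had 151, 40.01 and 21.8 CPM of Ctla4, and those without had 54.7, 23.8 and 5.54 CPM, the last from 4 UMIs. Cells with a Pdcd1 UMI numbered 158 of 277, 135 of 241 and 51 of 161, so their share was lowest in p38KO. The split was made at full depth, so cells without a UMI may still express Pdcd1. The part of this shift in the Ctla4 values of all Cd8a T cells was not tested.

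NK cells, in which the transcript was rarer, had 50, 1 and 11 Ctla4 UMIs, or 60.1, 1.31 and 10.1 CPM. The intervals of both p38 libraries lay below that of vehicle. The summed level of 10 T cell markers in NK cells was 2083, 1579 and 1674 CPM, with all 10 detected. Their part in the Ctla4 and Cd28 values of NK cells was not tested. Across classes the order by library range was Foxp3 T (486 to 1015 CPM), Cd4 T (107 to 388), other T-like (72.2 to 113), Cd8a T (10.6 to 117), NK (1.31 to 60.1) and gamma-delta T (0 to 36.8). The range of Foxp3 T cells lay above that of Cd4 T cells, and each later class overlapped the one before it.

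**Figure D1:**
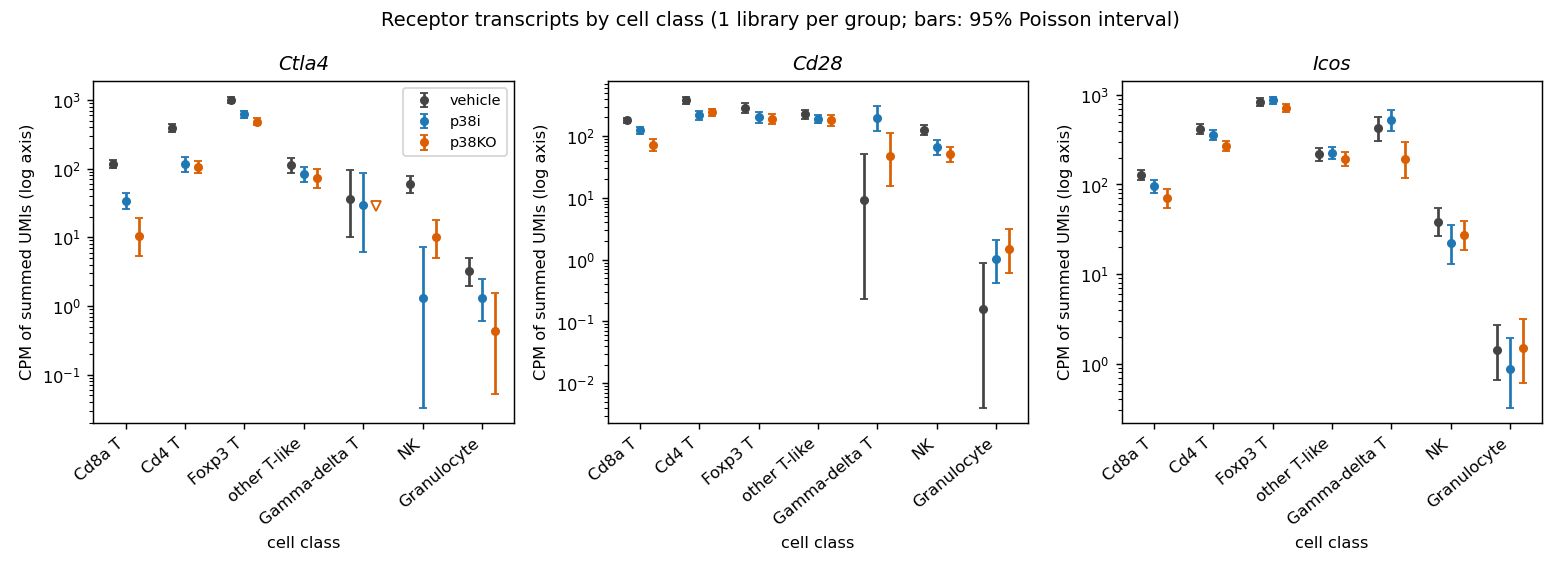
Ctla4, Cd28 and Icos in 7 cell classes. Points are CPM of UMIs summed over the cells of a class in 1 library, on a log axis, bars are 95% Poisson intervals, and the open triangle is the level that 3 UMIs would give where none was counted. Ctla4 in Cd8a T cells steps from 117 to 34.2 to 10.6 CPM, while Icos in Foxp3 T cells lies between 710 and 867 CPM, lowest in p38KO.

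The share of cells with a Ctla4 UMI, after every cell was thinned to 1500 UMIs, gave the same order against vehicle. It was 13.7%, 7.47% and 1.24% in Cd8a T cells, 26.9%, 10.3% and 11.2% in Cd4 T cells, and 68.1%, 45.6% and 46.4% in Foxp3 T cells. Granulocytes gave 0.268%, 0.234% and 0.106%. The median depth was 5448 to 6215 UMIs in Cd8a T cells, 3066 to 4324.5 in Foxp3 T cells and 2102 to 2390.5 in granulocytes.

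Cd28, the costimulatory receptor that competes with CTLA4 for ligand, was also lower. In Cd8a T cells it measured 179 CPM (161 to 198) in vehicle, 124 (107 to 143) in p38i and 72.9 (57.4 to 91.3) in p38KO, with intervals apart. The log2 ratios were -0.53 (-0.79 to -0.28) and -1.30 (-1.67 to -0.94). The p38i value lay close to the limit of a call and lost it under 5 of the alternatives, with ratios from -0.50 to -0.26, the last with cells gated after thinning to 1500 UMIs.

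In Cd4 T cells Cd28 measured 382, 218 and 241 CPM, ratios of -0.81 (-1.13 to -0.49) and -0.66 (-0.93 to -0.39), with both p38 libraries low and overlapping. Foxp3 T cells had 286, 203 and 189 CPM, and the ratio was -0.50 (-0.92 to -0.08) in p38i, just short of a call, and -0.60 (-1.002 to -0.20) in p38KO, a call. Without the cell with most Cd28 UMIs in each library the p38i ratio was -0.62, a call, and without cells with Mki67 or Top2a the p38KO ratio was -0.34, no call. NK cells had 126, 66.8 and 50.6 CPM. Unlike Ctla4, Cd28 was highest in Cd4 T cells (218 to 382 CPM), with ranges that overlapped those of Foxp3 T (189 to 286) and other T-like cells (179 to 227). The thinned shares were 23.5%, 18.7% and 8.70% in Cd8a, 41.2%, 28.1% and 36.5% in Cd4, and 36.1%, 21.9% and 28.9% in Foxp3 T cells.

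Both receptors were lower, so their balance was read within each library. It was taken as the share of Ctla4 among Ctla4 plus Cd28 UMIs, which does not depend on scaling. The fall of Ctla4 chose the genes, so a lower share was largely fixed by that choice and supports nothing further. In Cd8a T cells the share was 39.5% (exact Clopper-Pearson interval 35.6% to 43.5%), 21.7% (16.6% to 27.4%) and 12.6% (6.48% to 21.5%). Cd4 T cells gave 50.4% (45.7% to 55.1%), 34.6% (28.1% to 41.6%) and 30.8% (25.9% to 36.0%). The vehicle interval lay above both others in these subsets. Foxp3 T cells gave 78.0% (74.0% to 81.6%), 75.5% (70.8% to 79.8%) and 72.0% (67.1% to 76.5%), with intervals that overlapped.

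Icos, the costimulatory receptor with its own ligand, kept a different profile. Foxp3 T cells had the highest level, 833 CPM (743 to 931) in vehicle, 867 (783 to 958) in p38i and 710 (641 to 784) in p38KO, and neither ratio, 0.06 (-0.16 to 0.28) and -0.23 (-0.45 to -0.01), was a call. In Cd4 T cells Icos measured 416, 358 and 268 CPM, with p38KO called lower at -0.63 (-0.89 to -0.38) and p38i not called at -0.21 (-0.48 to 0.05). With cells gated after thinning the p38KO ratio was -0.39, no call, and in Cd4 T cells without Ikzf2 or Il2ra the p38i ratio was -0.58, a call. In Cd8a T cells it measured 129, 96.0 and 70.0 CPM, with p38KO again called, at -0.88 (-1.27 to -0.50), and p38i at -0.42 (-0.72 to -0.12).

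Gamma-delta T cells, a small class of 16 to 19 cells, had 423, 522 and 191 CPM of Icos. The order by library range was Foxp3 T (710 to 867 CPM), Cd4 T (268 to 416), gamma-delta T (191 to 522), other T-like (194 to 223) and Cd8a T (70.0 to 129). Foxp3 T cells stood above every other class and Cd8a T cells below the others named here, while gamma-delta T cells overlapped both of their neighbours. The thinned shares were 79.2%, 71.1% and 58.8% in Foxp3, 39.5%, 37.0% and 32.0% in Cd4, and 20.9%, 16.6% and 15.5% in Cd8a T cells.

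Levels over all T-like cells mix these subsets, whose proportions differed between libraries. Foxp3 T cells made up 12.6%, 16.5% and 17.3% of T-like cells and Cd8a T cells 48.5%, 34.8% and 28.7%. Over all T-like cells Icos was level, at 262, 277 and 266 CPM. Weighting each subset by its share of the T-like UMIs of vehicle, not of the cells, gave 262, 239 and 188 CPM instead. The same weighting moved the log2 ratio of Ctla4 from -0.86 to -1.12 in p38i and from -0.91 to -1.57 in p38KO. For Cd28 it moved from -0.47 to -0.55 and from -0.49 to -0.84.

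The subsets that carried Ctla4 also differed between libraries. Foxp3 T cells held 41.3% (38.1% to 44.6%) of the Ctla4 UMIs of T-like cells in vehicle, 60.1% (55.5% to 64.6%) in p38i and 63.0% (58.2% to 67.6%) in p38KO. Cd8a T cells held 26.5%, 11.2% and 2.59%. With the gate at 1500 UMIs fewer cells met the Foxp3 gate and the Foxp3 shares were 29.6%, 36.5% and 38.2%, in the same order.

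The ligands showed no call in p38i and 6 calls among 12 values in p38KO, 4 lower and 2 higher. The share of all tested genes called in p38i was 10.0% in dendritic cells, 7.65% in macrophages, 6.52% in monocytes and 9.44% in granulocytes. In p38KO it was 10.7%, 12.4%, 8.88% and 13.8%. Of the p38i values, Cd86 in dendritic cells became a call, at 0.88 (0.24 to 1.56), under marker gates, and Icosl in dendritic cells at 0.67 (0.03 to 1.33) without the cells of highest Scrublet score.

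Icosl, the ligand of ICOS, was low in all myeloid classes. Dendritic cells had 29.3, 40.6 and 29.1 CPM and granulocytes 18.4, 17.0 and 22.0 CPM, with no call. Macrophages had 15.7, 15.9 and 23.0 CPM, and p38KO was called higher at 0.55 (0.09 to 1.03). Monocytes had 22.6, 22.3 and 14.9 CPM, and p38KO was called lower at -0.60 (-1.07 to -0.14). By library range dendritic cells (29.1 to 40.6 CPM) stood above macrophages (15.7 to 23.0), monocytes (14.9 to 22.6) and granulocytes (17.0 to 22.0), which overlapped. B cells, not a myeloid class, had a higher CPM than dendritic cells in every library, from only 10, 14 and 5 UMIs. The macrophage call was lost at Leiden resolution 2 (0.47), and both calls were lost under marker gates, where the intervals took in 0 at ratios of 0.56 and -0.66. Thinned shares lay between 2.36% and 5.26% of cells.

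Cd80, a ligand of both CD28 and CTLA4, differed between p38KO and the other libraries in opposite directions. Monocytes had 45.6 CPM (40.03 to 51.7) in vehicle, 43.8 (39.5 to 48.5) in p38i and 21.6 (17.3 to 26.7) in p38KO, a log2 ratio of -1.08 (-1.45 to -0.72) for p38KO. Granulocytes had 31.2 (26.9 to 35.8), 29.6 (25.7 to 34.0) and 44.9 (39.0 to 51.5) CPM, a ratio of 0.53 (0.24 to 0.82) for p38KO. The p38KO library was the lowest in monocytes and the highest in granulocytes, apart from both others each time. The granulocyte call lay close to its limit, and with median-ratio scaling, which shifts the median gene of granulocytes by 0.11 and that of Cd8a T cells by 0.10 in p38KO, the ratio was 0.42 (0.13 to 0.70), no call. It was also lost under marker gates (0.49) and without the cells of highest Scrublet score (0.47). The monocyte call was made under every alternative with an interval. The 8 granulocyte markers, all detected, summed to 7904, 11200 and 4780 CPM in monocytes, and their part in the Cd80 values was not tested.

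Macrophages had 9.84, 9.46 and 4.65 CPM of Cd80, a p38KO ratio of -1.08 (-1.80 to -0.35). Under marker gates 17 vehicle and 2 p38KO UMIs remained, under the count set for a call. Dendritic cells had 23.9, 22.3 and 9.34 CPM from 31, 33 and 17 UMIs, a p38KO ratio of -1.35 (-2.30 to -0.46). The dendritic call turned to 1.35 (-0.60 to 3.85) under marker gates (a UMI of Flt3 and none of C1qa, Fn1, Csf3r, Trac or the Cd3 genes), which left 3 vehicle and 10 p38KO UMIs. Thinned shares were 6.07%, 6.94% and 2.57% in monocytes, 3.94%, 4.41% and 6.06% in granulocytes, 5.26%, 5.63% and 1.55% in dendritic cells, and 1.43%, 0.625% and 0.765% in macrophages, where p38KO was not the lowest. By library range monocytes (21.6 to 45.6 CPM) and granulocytes (29.6 to 44.9) overlapped, dendritic cells (9.34 to 23.9) overlapped monocytes but not granulocytes, and macrophages (4.65 to 9.84) overlapped dendritic cells alone among these.

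Cd86, the other shared ligand, was the most abundant of the 3 ligands and had no call. Monocytes had 140 CPM (130 to 151), 110 (103 to 118) and 101 (91.3 to 111), ratios of -0.35 (-0.49 to -0.20) and -0.47 (-0.65 to -0.30), with both p38 libraries below vehicle but under the size set for a call. With median-ratio scaling the p38KO ratio was -0.55, a call. Under marker gates Cd86 of p38KO was called lower in monocytes (-0.57) and macrophages (-0.70) and higher in dendritic cells (0.79). Macrophages had 109, 87.2 and 84.4 CPM, ratios of -0.32 (-0.56 to -0.08) and -0.36 (-0.55 to -0.17). Dendritic cells had 106, 114 and 102 CPM with overlapping intervals. Granulocytes were far lower, at 10.1, 9.68 and 12.5 CPM, and did not overlap the other classes, which overlapped each other. Thinned shares were 17.0%, 14.9% and 11.6% in monocytes, 12.9%, 14.4% and 14.1% in macrophages, 14.7%, 7.75% and 16.3% in dendritic cells, and 1.34%, 1.29% and 1.54% in granulocytes.

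Within the dendritic class the transcripts were unevenly spread. The conventional cluster, with Xcr1 and Cd209a among its leading genes, had 129, 159 and 132 CPM of Cd86, and the cluster of Klk1 and Siglech, the latter a gene of plasmacytoid cells, had 11.6, 14.98 and 20.1 CPM. Cells with at least 2 of Ccr7, Fscn1 and Ccl22, genes of mature dendritic cells, had 463, 201 and 193 CPM of Cd86 and 130, 78.8 and 96.5 CPM of Cd80, but there were 6, 15 and 7 such cells.

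**Figure D2:**
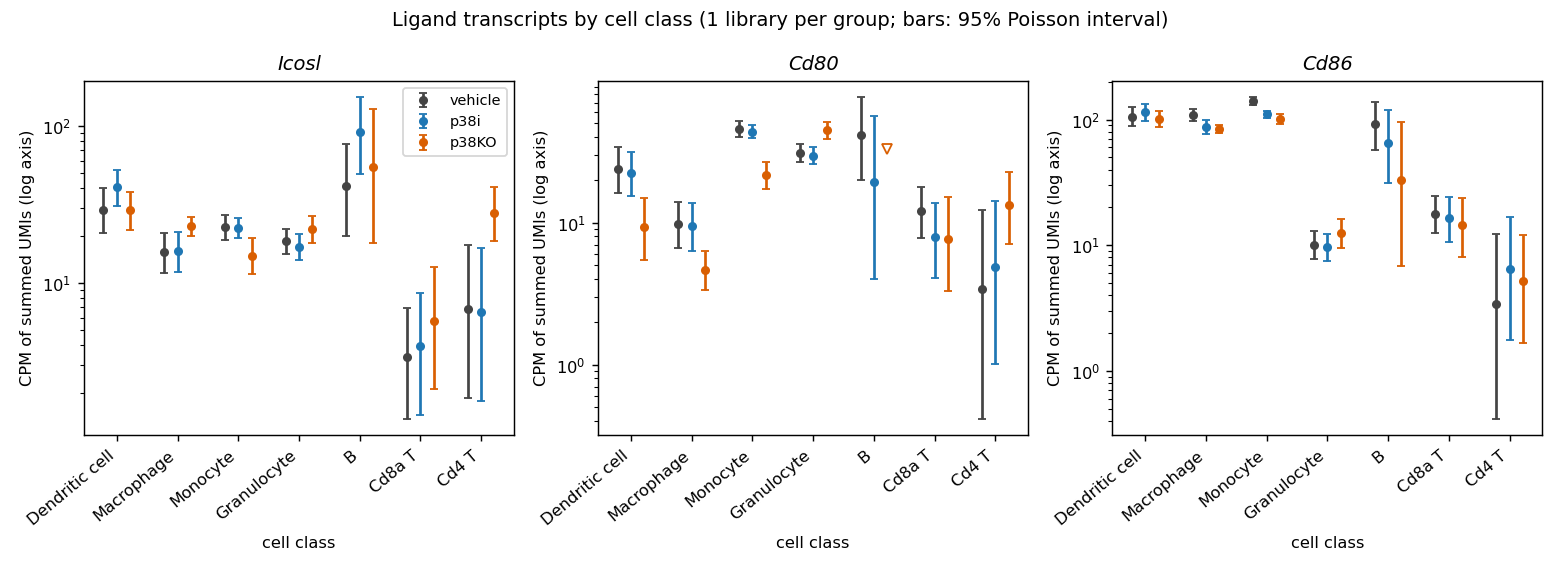
Icosl, Cd80 and Cd86 in 7 cell classes, drawn as for the receptors. Cd80 in p38KO lies below the other libraries in monocytes (21.6 CPM) and above them in granulocytes (44.9 CPM), and Cd86 is lowest among the myeloid classes in granulocytes.

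**Figure D3:**
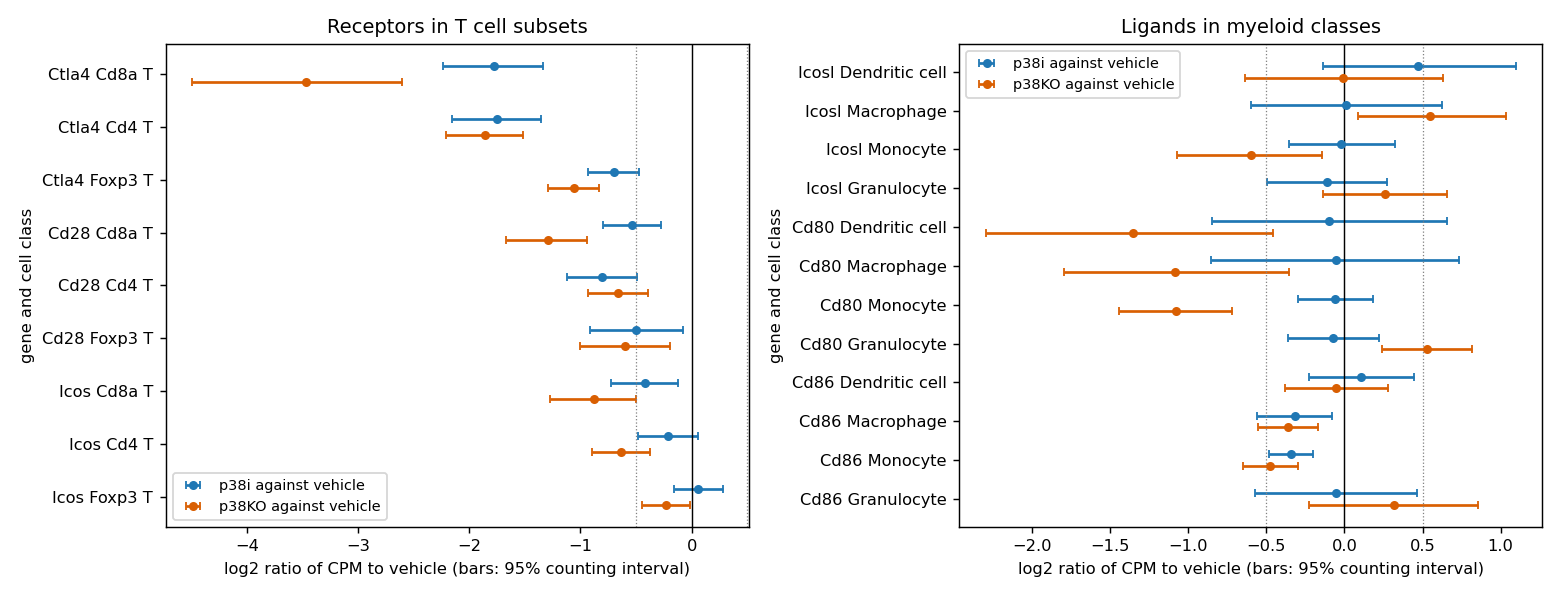
Log2 ratio of CPM to vehicle for receptors in T cell subsets and ligands in myeloid classes, with 95% counting intervals. Dotted lines mark 0.5 either way, and the receptor ratios reach -3.47 for Ctla4 in Cd8a T cells of p38KO.

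The balance of the shared ligands was read as the share of Cd86 among Cd86 plus Cd80 UMIs. It was 75.5% (72.6% to 78.1%), 71.6% (69.1% to 74.0%) and 82.4% (78.7% to 85.6%) in monocytes. Macrophages gave 91.7%, 90.2% and 94.8% and dendritic cells 81.5%, 83.6% and 91.6%, with overlapping intervals within each class. Granulocytes, where Cd80 was the more abundant ligand, gave 24.4%, 24.6% and 21.8% with overlapping intervals.

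Most ligand transcripts came from classes whose cell numbers differed between libraries. Monocytes held 55.4%, 63.3% and 28.2% of the Cd86 UMIs of a library and macrophages 24.6%, 17.4% and 51.7%, beside macrophage shares of 3.66%, 3.34% and 13.6% of kept cells. For Cd80, monocytes held 44.6%, 55.9% and 23.0% and granulocytes 36.0%, 30.3% and 55.0%. For Icosl, macrophages held 13.2%, 10.2% and 42.6%. Dendritic cells held 4.50% to 13.04% of any ligand in any library. Macrophage markers were also higher outside macrophages in p38KO. Their summed level in granulocytes was 188, 133 and 572 CPM, with all 8 genes detected in each library, and in Cd8a T cells 71.7, 59.2 and 294 CPM. Their part in the ligand values was not tested.

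**Figure D4:**
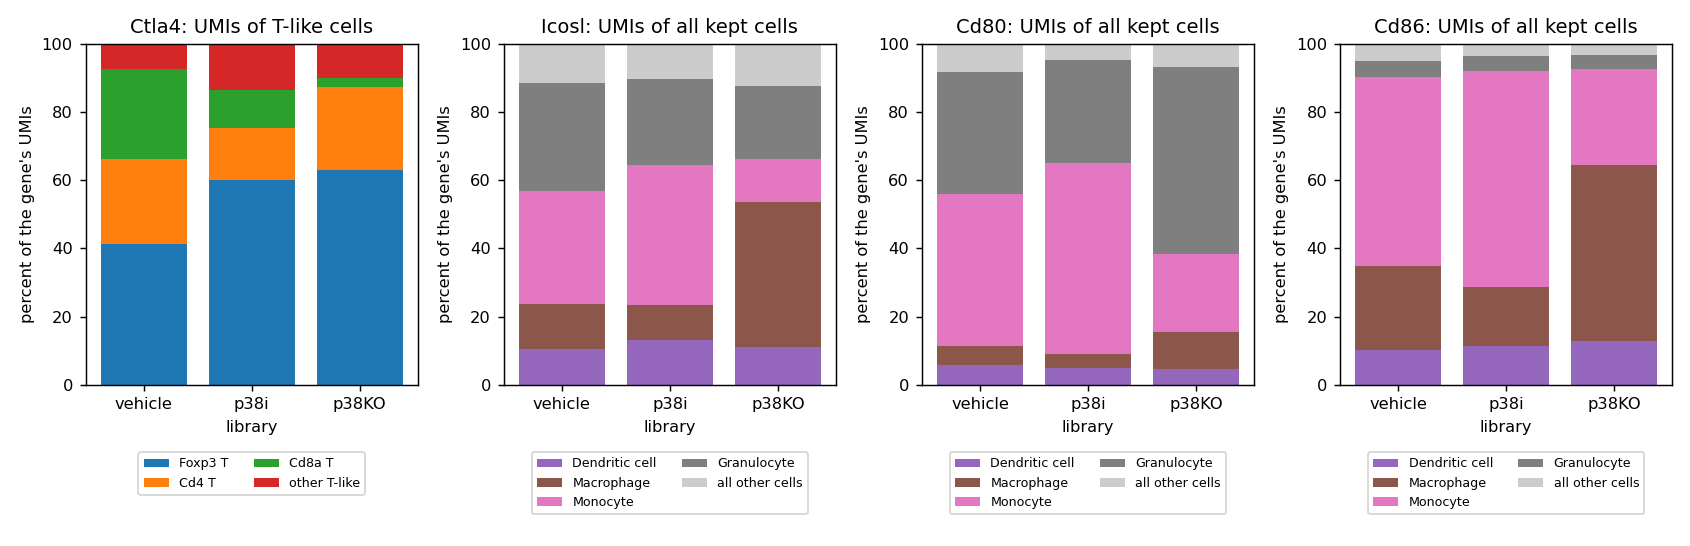
Share of the UMIs of Ctla4 (T-like cells) and of Icosl, Cd80 and Cd86 (all kept cells) held by each class, stacked to 100% in each library. Foxp3 T cells hold 41.3%, 60.1% and 63.0% of Ctla4, and macrophages hold 51.7% of Cd86 in p38KO.

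Other genes of the pathway were read from lists. Of 14 relatives of CD28 and the B7 ligands, 10 were measured in Cd8a T cells in p38i with none called, and 9 in p38KO with 1 higher, Cd226 (0.90), and 3 lower, led by Pdcd1lg2 (-1.33). The list medians were 0.07 and -0.05, beside 0.06 and 0.07 for all genes tested. In Foxp3 T cells Cd274, the gene for PD-L1, was the lower call of this list in both groups, at -0.76 and -0.54. Each group also had 1 higher call, Pdcd1lg2 (1.11, from 10 and 26 UMIs) in p38i and Cd96 (1.69, from 4 and 19 UMIs) in p38KO. In Cd4 T cells none of 7 was lower, and the higher calls were Vsir (0.57) in p38i and 2 in p38KO, led by Pdcd1 (0.88). Of all genes, 7.46% and 12.1% were called in Cd8a T cells of p38i and p38KO. The shares were 8.00% and 11.4% in Cd4 and 7.88% and 8.73% in Foxp3 T cells.

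All 24 genes of CD28-family signalling were measured in the T cell subsets, with medians from -0.09 to 0.14 beside 0.03 to 0.10 for all genes. In p38i and p38KO 3 and 5 of the 24 were called in Cd8a, 1 and 2 in Cd4, and 3 and 3 in Foxp3 T cells, in either direction, beside all-gene shares of 7.46% and 12.1%, 8.00% and 11.4%, and 7.88% and 8.73%. Malt1, a paracaspase that carries antigen receptor signals to NF-κB, was called lower in all 3 subsets of both groups. It measured 208, 146 and 129 CPM in Cd8a, 346, 171 and 153 in Cd4, and 485, 332 and 289 in Foxp3 T cells. Nfatc2, an NFAT factor, was the largest higher call in Cd8a T cells, at 0.69 and 0.88. Pdpk1, a kinase upstream of AKT, was the largest lower call in Foxp3 T cells of p38i, at -1.14.

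Among 14 genes for the turnover of CTLA4, ICOS and CD86, Lrba, which protects CTLA4 from degradation, was the only call in Foxp3 T cells, lower in p38KO at -0.98, with none in p38i. In Cd8a T cells the only call was Trat1 in p38KO, higher at 2.07 from 10 and 21 UMIs. Cd4 T cells had 1 higher (Rc3h1, 0.94) and 1 lower (Trim27, -0.75) in p38i, and 2 higher, led by Rab8a (0.56), and 1 lower, Trat1 (-1.11), in p38KO. Granulocytes of p38KO had 3 higher calls of 12 measured, led by Cd83 (2.94), whose vehicle value rests on 3 UMIs. In each T cell subset 11 or 12 of the 14 were measured. Beside these counts, 7.46% and 12.1% of all genes were called in Cd8a T cells of p38i and p38KO. The shares were 8.00% and 11.4% in Cd4 and 7.88% and 8.73% in Foxp3 T cells, and 13.8% in granulocytes of p38KO.

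Among 14 target genes of CD28 and ICOS, Il10, an immunosuppressive cytokine, was the largest lower call in Foxp3 T cells, with 21, 7 and 4 UMIs and ratios of -1.85 and -2.95. The list had 2 lower and no higher calls of 7 measured there in p38i and 3 lower and none higher in p38KO. Its medians were -0.44 and -0.45, beside 0.03 and 0.06 for all genes, of which 7.88% and 8.73% were called. In Cd4 T cells Il2, the T cell growth factor, measured 133, 6.52 and 393 CPM, so it was called lower in p38i (-4.35) and higher in p38KO (1.57). The largest higher calls there were Ifng, the macrophage-activating cytokine, in p38i (3.11, from 7 and 63 UMIs) and Il4 in p38KO (5.002, from 1 and 53 UMIs). Ifng was also called higher in Cd4 T cells of p38KO (4.66, from 7 and 292 UMIs). In Cd8a T cells of p38KO it was called lower (-1.24, from 366 and 78 UMIs). Ifng was also a leading gene of the cluster led by Ccl1 and Lgals7, which held 32, 48 and 96 cells. Il4 was a leading gene of a mast or basophil cluster. The summed level of 7 mast or basophil markers in Cd4 T cells was 42.6, 76.6 and 137 CPM, with 1, 2 and 6 detected. The part of this cluster and of these markers in the Ifng and Il4 values was not tested. Maf was the largest lower call in Cd8a T cells of p38i (-1.23) and Il2ra, the IL-2 receptor α chain, in those of p38KO (-1.45). Il2 was the largest higher call in Cd8a T cells of p38KO (1.53, from 9 and 13 UMIs).

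Of 16 regulatory T cell genes, Foxp3 T cells had 2 higher and no lower calls of 14 measured in p38i, led by Gpr83 (2.98, from 2 and 19 UMIs). In p38KO they had 1 higher, Ikzf4 (0.62), and 1 lower, Tnfrsf9 (-0.77), of 13. Cd4 T cells had 2 higher and 1 lower of 10 in p38i and 5 higher and 2 lower of 10 in p38KO. Itgae led the higher calls (2.44 and 2.50), from 3 vehicle, 17 p38i and 28 p38KO UMIs. All-gene shares of calls in p38i and p38KO were 7.88% and 8.73% in Foxp3 and 8.00% and 11.4% in Cd4 T cells. In the myeloid classes the 5 lists, with 4 to 24 genes measured, had 0 to 3 calls per direction, with a single exception. All-gene shares of calls in p38i and p38KO were 10.0% and 10.7% in dendritic cells and 7.65% and 12.4% in macrophages. They were 6.52% and 8.88% in monocytes and 9.44% and 13.8% in granulocytes. The exception was 7 of 10 regulatory T cell genes called higher in monocytes of p38i, led by Tnfrsf4 (3.89). Several of the 7, such as Foxp3, Il2ra and Tnfrsf18, are T cell genes, and the summed level of 10 T cell markers in monocytes was 45.8, 88.9 and 75.5 CPM with all 10 detected. Their part in these calls was not tested. In Cd8a T cells of p38KO 6 of 10 were called lower, led by Tnfrsf4, the gene for OX40, at -3.47. The list had 1 higher call there, Itgae (3.99), and a median of -1.08, beside 12.1% of all genes called in either direction.

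The genes with the most similar profiles were ranked by Pearson r of log2(CPM + 10) over 36 class by library profiles, among 11410 genes. The profiles share libraries and depth, so the values are descriptive. For Ctla4 they were Cd5, Izumo1r, Sdf4, Tnfrsf4 and Tbc1d30 (r from 0.91 to 0.89). For Cd28 they were Lck, Lef1, Mat2b, Utrn and Gimap3 (0.92 to 0.88), and for Icos Camk4, Rora, Bcl11b, Il2ra and Cd247 (0.97 to 0.95). Icosl had the lowest values, with Zbtb18, A530032D15Rik, Trim7, H2-DMb2 and Rubcnl (0.79 to 0.76). Cd80 was most like Bst1, Mefv, Esd, Il18 and Cd44 (0.88 to 0.82), and Cd86 like Aif1, Ms4a6d, P2ry6, Cxcl16 and Pld4 (0.93 to 0.91).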

How the data were processed

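Sorted leukocytes of 3 groups, 1 library of 3 pooled mice each, were analysed. The deposited values are unnormalized UMI counts per gene and barcode, which the authors made with Cell Ranger (6.0.0 in the file headers; mm10, R 4.2.1 and Seurat 5 in the submitters' processing notes). The labels name 3′ chemistry v2 and the methods another version. The study's limits on cells were applied. Counts were scaled to 10000 and log-transformed, and 2000 variable genes, 30 components, 15 neighbours and Leiden clustering at resolution 1 gave 24 clusters, of which 23 were named from fixed markers. Cd8a T cells had Cd8a and neither Cd4 nor Foxp3, Cd4 T cells had Cd4 and neither other, and Foxp3 T cells had Foxp3 and no Cd8a UMI. Scrublet marked 2 cells per library, which is too few to have worked, and no doublets were removed.

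CPM came from summed counts, with exact Poisson intervals, exact conditional binomial intervals for ratios and Clopper-Pearson intervals for shares. PCR and cell sampling are not covered. The call rule was tried on simulated Poisson counts. These follow the model that the intervals assume, so the simulation cannot cover spread between cells or mice. Named genes were all 6 members, for each list the called gene with the largest ratio in each direction, and the 5 most similar genes. A few more were named after their values were seen: Malt1 in every subset, the Cd274 values, the Ifng values of p38KO, Tnfrsf4 in monocytes and the dendritic subsets. The genes and lists were chosen with earlier results of these data known. Alternatives were other gates, filters, clustering, scaling, doublet and cycling cell removal. Tools were Python 3.11.15, scanpy 1.11.5, leidenalg 0.10.2, numpy 2.4.6 and scipy 1.17.1.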

Additional observations from a re-analysis of the deposited data

Results flagged for a closer look

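Members whose values were called in opposite directions in different cell classes under the same comparison are given here. With 1 library per group the difference between classes was not tested. Cd80 in p38KO had log2 ratios to vehicle of -1.35 in dendritic cells, -1.08 in macrophages and -1.08 in monocytes, against 0.53 in granulocytes. Icosl in p38KO stood at -0.60 in monocytes, against 0.55 in macrophages and 2.03 in Cd4 T cells. The last value rests on 4 vehicle and 27 p38KO UMIs, 24 of them in the 90 Cd4 T cells of p38KO that fell in the cluster led by Ccl1 and Lgals7. It was singled out after its values were seen.

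The receptors differed in direction through classes that should carry few of their transcripts. Ctla4 in p38i stood at -1.77 in Cd8a T cells, -1.75 in Cd4 T cells, -0.70 in Foxp3 T cells, -1.77 in dendritic cells and -1.27 in granulocytes, against 1.68 in monocytes. Cd28 in p38i stood at -0.53 in Cd8a T cells, -0.81 in Cd4 T cells and -2.21 in macrophages, against 1.23 in dendritic cells and 2.57 in monocytes. Icos in p38i stood at -1.36 in dendritic cells against 1.49 in monocytes. Icos in p38KO stood at -0.88 in Cd8a T cells, -0.63 in Cd4 T cells and -2.92 in dendritic cells, against 1.86 in macrophages. The monocyte values of p38i rest on 36 Ctla4, 38 Cd28 and 45 Icos UMIs in 1038 cells, and those of vehicle on 7, 4 and 10. Icos had 27 vehicle, 12 p38i and 5 p38KO UMIs in dendritic cells, and 4 vehicle and 42 p38KO UMIs in macrophages. Cd28 had 19 vehicle and 4 p38i UMIs in macrophages and 9 and 24 in dendritic cells. Ctla4 had 21 vehicle and 7 p38i UMIs in dendritic cells and 20 and 9 in granulocytes. The summed T cell markers of monocytes were 45.8, 88.9 and 75.5 CPM in vehicle, p38i and p38KO, with all 10 genes detected in each, those of dendritic cells 65.5, 262 and 74.2 CPM, and those of macrophages 89.9, 28.4 and 62.0 CPM. Across these classes the T cell markers moved in the direction of a receptor in some cases and in the other direction in others. In monocytes Tnfrsf4 had 4 UMIs in vehicle and 95 in p38i. Their part in these values was not tested.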

How the results depend on the processing

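Of 402 values recomputed under other settings, 297 stayed within their counting interval or, for counts of calls, within 1.5 times, 103 moved and 2 reversed. Of these, 63 are shares of cells at full depth, where each cell holds more UMIs than after thinning, and for the others the cause was not tested. No paired analysis was possible because each group has 1 library. Leaving out a replicate was not possible for the same reason. With T cells gated after thinning to 1500 UMIs, the log2 ratios that moved were -1.09 for Ctla4 in Cd4 T cells of p38i, -0.93 for Ctla4 in Cd4 T cells of p38KO, -0.93 for Ctla4 in Foxp3 T cells of p38i, -0.26 for Cd28 in Cd8a T cells of p38i. With marker gates in place of clusters, the log2 ratios that moved were -1.15 for Ctla4 in Cd4 T cells of p38i, -1.40 for Ctla4 in Cd4 T cells of p38KO, -0.72 for Ctla4 in Foxp3 T cells of p38KO, 0.098 for Icos in Foxp3 T cells of p38KO, 1.55 for Cd80 in dendritic cells of p38i, 1.35 for Cd80 in dendritic cells of p38KO (reversed), -3.60 for Cd80 in macrophages of p38KO, -1.53 for Cd80 in monocytes of p38KO, 0.88 for Cd86 in dendritic cells of p38i, 0.79 for Cd86 in dendritic cells of p38KO, 0.44 for Cd86 in macrophages of p38i, -0.70 for Cd86 in macrophages of p38KO, -0.55 for Cd86 in granulocytes of p38KO. With marker gates in place of clusters, 1 of the 12 ligand values was called in p38i, against 0 with the settings of the report. With marker gates and no cell filter, the log2 ratios that moved were -1.19 for Ctla4 in Cd4 T cells of p38i, -1.35 for Ctla4 in Cd4 T cells of p38KO, -0.73 for Ctla4 in Foxp3 T cells of p38KO, 0.076 for Icos in Foxp3 T cells of p38KO, 1.56 for Cd80 in dendritic cells of p38i, 1.35 for Cd80 in dendritic cells of p38KO (reversed), -3.11 for Cd80 in macrophages of p38KO, -1.50 for Cd80 in monocytes of p38KO, 0.88 for Cd86 in dendritic cells of p38i, 0.78 for Cd86 in dendritic cells of p38KO, 0.40 for Cd86 in macrophages of p38i, -0.73 for Cd86 in macrophages of p38KO, -0.52 for Cd86 in granulocytes of p38KO. With marker gates and no cell filter, 1 of the 12 ligand values was called in p38i, against 0 with the settings of the report. With the mean CPM per cell, the log2 ratios that moved were -1.27 for Ctla4 in Cd4 T cells of p38KO, -0.30 for Cd86 in dendritic cells of p38i. Without cells with Mki67 or Top2a, the log2 ratios that moved were -0.18 for Icos in Foxp3 T cells of p38i. Without the 5% of cells with the highest Scrublet scores, 1 of the 12 ligand values was called in p38i, against 0 with the settings of the report. With the Cd4 gate without Ikzf2 or Il2ra, chosen after seeing the data, the log2 ratios that moved were -2.84 for Ctla4 in Cd4 T cells of p38i, -0.58 for Icos in Cd4 T cells of p38i, -1.01 for Icos in Cd4 T cells of p38KO. With T cells gated after thinning to 1500 UMIs, Foxp3 T cells held 29.6%, 36.5% and 38.2% of the Ctla4 UMIs of T-like cells. At full depth the share of cells with a Ctla4 UMI was 35.02%, 17.4% and 6.21% in Cd8a T cells, 44.5%, 18.5% and 21.9% in Cd4 T cells, 91.7%, 72.8% and 70.1% in Foxp3 T cells (vehicle, p38i and p38KO). At full depth the share of cells with a Cd28 UMI was 62.1%, 45.2% and 32.3% in Cd8a T cells, 71.4%, 54.8% and 65.7% in Cd4 T cells, 70.8%, 46.5% and 55.7% in Foxp3 T cells (vehicle, p38i and p38KO). At full depth the share of cells with an Icos UMI was 46.2%, 39.4% and 31.7% in Cd8a T cells, 69.7%, 60.96% and 60.1% in Cd4 T cells, 91.7%, 79.8% and 78.4% in Foxp3 T cells (vehicle, p38i and p38KO). At full depth the share of cells with an Icosl UMI was 31.6%, 28.9% and 31.01% in dendritic cells, 27.1%, 24.4% and 28.5% in macrophages, 16.8%, 15.5% and 11.6% in monocytes, 4.70%, 4.37% and 4.99% in granulocytes (vehicle, p38i and p38KO). At full depth the share of cells with a Cd80 UMI was 22.1%, 17.6% and 8.53% in dendritic cells, 16.4%, 15% and 6.50% in macrophages, 27.9%, 25.5% and 13.1% in monocytes, 6.66%, 6.95% and 8.66% in granulocytes (vehicle, p38i and p38KO). At full depth the share of cells with a Cd86 UMI was 50.5%, 36.6% and 53.5% in dendritic cells, 68.6%, 66.2% and 60.4% in macrophages, 55.1%, 45.4% and 44.3% in monocytes, 2.37%, 2.15% and 2.44% in granulocytes (vehicle, p38i and p38KO). Without the cell with most UMIs of a gene in each library, also chosen after seeing the data, all 18 receptor ratios stayed within their intervals. Cd8a or Cd8b1 gating, Leiden resolution 2 and median-ratio scaling moved no value beyond its interval, though calls near the 0.5 limit changed under them. Leaving out the top cell made Cd28 in Foxp3 T cells of p38i a call. Counts below 20 UMIs, as for Cd80 under Flt3 gating, limit what these data resolve.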

Other observations

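Sdf4, a calcium-binding protein of the Golgi, was among the 5 genes most like Ctla4 in profile (Pearson r of 0.91 over 36 profiles), beside Tnfrsf4. In GENCODE M21 both genes lie on the plus strand of chromosome 4, and 232 bases separate the end of Sdf4 from the start of Tnfrsf4. Whether reads of one gene were counted for the other was not tested. B cells, 39, 31 and 14 in the vehicle, p38i and p38KO libraries, had 91.5, 64.6 and 32.9 CPM of Cd86 from 22, 10 and 3 UMIs, with intervals that overlapped.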
